A study of Homo sapiens with 12 samples.

Results

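The secretoglobins are a family of small secreted proteins of glandular epithelium. Expression was read here for SCGB1A1, SCGB1D1, SCGB1D2, SCGB2A1, SCGB2A2, SCGB3A1 and SCGB3A2 in Ishikawa cells, an established line from a human endometrial adenocarcinoma. The members were taken by symbol: each probe set that the array platform assigns to 1 of these 7 genes alone was used, whatever its values. That gave 7 genes of 19775 measured, with 1 probe set each among 54613 tested. The family was chosen by the values of SCGB1D1, which stood among the probe sets with the lowest values after metastin-10 in an earlier reading of the same table, so the differences of SCGB1D1 are given with their intervals and without a test, and counts of members called are over the other 6.

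All cells were transfected with an siRNA for 48 h and then kept with a peptide for 24 h. The siRNA was either a negative control or directed at GPR54, the receptor encoded by KISS1R, and the peptide was either a control peptide or 10 µM metastin-10, also called kisspeptin-10, the ligand of that receptor. The 12 Affymetrix arrays form 4 groups of 3 labelled as biological replicates, 1 group for each pairing of an siRNA and a peptide. The design asks how metastin-10 alters expression and what an siRNA against its receptor does to that response. Levels below are log2 RMA values (robust multi-array average), so a difference of 1 is a factor of 2, and for arrays it is their number that limits the precision.

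Secretoglobins are short helical chains that pair into dimers held by disulfide bonds and carry small hydrophobic molecules. SCGB1A1 encodes uteroglobin, first known from uterine secretions and a major product of airway club cells. SCGB2A2 encodes mammaglobin A and SCGB2A1 mammaglobin B, also called lipophilin C, which is made by endometrial and other gynaecological tumours. SCGB1D1 and SCGB1D2 encode lipophilins A and B, which pair with the mammaglobins. SCGB3A1 and SCGB3A2 are products of airway and other epithelia.

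The checks that touch these results are few. KISS1R, the target of the siRNA, was at a log2 level of 9.28 ± 0.13 (SD, n = 3) under both controls. Arrays labelled GPR54 siRNA gave 9.42 ± 0.05 for the control peptide and 9.43 ± 0.16 for metastin-10. Its mRNA was therefore not lower where the label says it was targeted, and each direction below for the siRNA refers to the label. Control siRNA with metastin-10 had the lowest KISS1R level, 8.40 ± 0.04. Replicate 3 of every group lay apart on the first axis of variation between arrays (27.7% of variance), between -0.51 and -0.24, with the other arrays between -0.20 and 0.37. On the second axis (21.4%) the metastin-10 arrays of control siRNA reached 0.66 in replicate 1 and 0.46 in replicate 2, and all remaining arrays fell between -0.30 and 0.17. The differences of the members and of the called list genes are given below also without the replicates 1 and 2 of that group and, where a call is lost, without replicate 3 of every group. Markers of epithelium were high (10 genes, means of 8.69 to 13.99), as the label requires of this line. The defining markers of leukocytes (6 genes, 3.48 to 5.57), endothelium (6 genes, 3.05 to 6.97) and stromal fibroblasts (8 genes, 2.56 to 9.84) were lower, with the exception of the collagen gene COL1A1 at 9.84, and by limma 0 of them were called in any of the 5 comparisons.

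The members SCGB1D1, SCGB2A1, SCGB1D2 and SCGB2A2 sit next to each other on chromosome 11, in that order, with the coding gene INCENP before them and SCGB1D4, then ASRGL1, after them. SCGB1D4 is not named by a probe set in the annotation used. SCGB1A1 lies on the same chromosome between ASRGL1 and AHNAK, while SCGB3A2 and SCGB3A1 are on chromosome 5. The 250 bases before the RefSeq start sites of the 4 adjacent genes (GRCh38.p14, plus strand) are shown because the first 3 of these genes had their lowest levels in the same arrays. SCGB2A2 is printed as the pair of SCGB2A1, and its signal lay below every guide probe set of unexpressed genes, so a fall could hardly have been seen. They are chr11:62189966-62190215, chr11:62241989-62242238, chr11:62208423-62208672 and chr11:62269908-62270157 in the order printed. Capitals mark the longest run of letters that the members of a pair, SCGB1D1 with SCGB1D2 and SCGB2A1 with SCGB2A2, share without a mismatch.
SCGB1D1: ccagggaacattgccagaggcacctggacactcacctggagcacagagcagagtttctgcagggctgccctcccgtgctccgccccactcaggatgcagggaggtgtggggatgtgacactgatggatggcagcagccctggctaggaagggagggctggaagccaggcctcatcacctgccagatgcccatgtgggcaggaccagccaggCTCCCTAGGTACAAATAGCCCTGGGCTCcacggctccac
SCGB1D2: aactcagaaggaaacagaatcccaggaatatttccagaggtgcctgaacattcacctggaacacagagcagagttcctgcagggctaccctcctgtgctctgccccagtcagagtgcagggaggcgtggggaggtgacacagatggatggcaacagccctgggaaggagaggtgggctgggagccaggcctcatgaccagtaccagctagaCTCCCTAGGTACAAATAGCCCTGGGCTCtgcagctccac
SCGB2A1: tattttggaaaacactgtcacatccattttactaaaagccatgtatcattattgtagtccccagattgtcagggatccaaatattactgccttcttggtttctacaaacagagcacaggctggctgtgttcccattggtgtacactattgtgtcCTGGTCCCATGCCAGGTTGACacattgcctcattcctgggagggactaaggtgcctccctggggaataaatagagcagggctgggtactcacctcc
SCGB2A2: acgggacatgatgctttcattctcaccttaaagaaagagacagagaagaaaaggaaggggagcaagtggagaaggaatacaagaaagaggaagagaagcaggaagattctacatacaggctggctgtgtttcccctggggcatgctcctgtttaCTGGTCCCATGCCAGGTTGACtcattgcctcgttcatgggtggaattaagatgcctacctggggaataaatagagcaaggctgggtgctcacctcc

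In a global alignment SCGB1D1 and SCGB1D2 had 197 identical bases over 270 aligned columns (73.0%), and the shared run of 28 bases lay at positions -39 to -12 from the start. SCGB2A1 and SCGB2A2 had 163 over 258 (63.2%), with a shared run of 21 bases at positions -96 to -76. SCGB1D1 aligned with SCGB2A1 at 46.5%, and the SCGB1D1 window was closest to that of SCGB1D4 (83.7%). The E-box letters CAGGTG, searched on both strands, occurred 3 times before SCGB1D1 and 1 time before SCGB1D2, with 17.5% of 35116 RefSeq windows of this length holding them. They were not found before SCGB2A1 or SCGB2A2. SCGB2A2 alone of the 4 held the letters TGAGTCA (4.2% of windows) and TGTTTAC (2.98%), and SCGB2A1 alone held CCAAT (32.0%). The letters TATAAA (10.7%), ACGTG (18.5%), TGACGTCA (1.65%) and AGAACA (12.4%) were in none of the 4 windows. A match or its absence describes these letters only. The windows of the pair SCGB2A1 and SCGB2A2 are thus related in sequence, while their probe sets lay at opposite ends of the array's range, as the levels show.

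Averaged over the 12 arrays, SCGB2A1 was at 11.01, the 97.2nd percentile of all tested probe sets, and SCGB1D2 and SCGB1D1 were at 7.28 and 6.85, the 74.4th and 70.5th percentiles. SCGB3A1 was at 5.43 (54.1st percentile), SCGB1A1 at 3.63 (24.7th), SCGB3A2 at 3.51 (22.6th) and SCGB2A2 at 2.52 (3.4th). Detection calls were not used here. As a guide to the level of unexpressed genes, 18 probe sets of genes of distant tissues, such as insulin, were used. They ranged from 2.87 to 6.72, the level of TNNI3, with a median of 4.24. All 18 lay below SCGB2A1, SCGB1D2 and SCGB1D1, 16 below SCGB3A1, 6 below SCGB1A1, 5 below SCGB3A2 and 0 below SCGB2A2. Probe sets differ in brightness for the same amount of RNA, so these places do not order the genes by abundance. They show which members had a signal above the guide: the pair of lipophilins and SCGB2A1.

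SCGB1D1, lipophilin A, had the widest range of the members, 2.19 over the 12 arrays. With control siRNA and control peptide it was at 7.11, 7.04 and 7.06 in replicates 1, 2 and 3. With control siRNA and metastin-10 it was at 5.35, 5.46 and 5.92. With GPR54 siRNA it was at 7.47, 7.25 and 7.22 with control peptide and at 7.54, 7.36 and 7.36 with metastin-10. The 3 arrays of control siRNA with metastin-10 were the lowest of the 12 and overlapped no other group, and among them replicate 3 was the highest. The level in that group, 5.58 ± 0.30 (SD, n = 3), lay within the range of the guide probe sets, where RMA compresses differences.

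SCGB2A1, the mammaglobin that pairs with lipophilin A, showed the same order of groups at a much brighter probe set. It was at 10.94, 11.00 and 11.12 in control siRNA with control peptide, and at 10.36, 10.33 and 10.51 with metastin-10. Under the GPR54 siRNA label it was at 11.24, 11.14 and 11.26 with control peptide and at 11.36, 11.36 and 11.50 with metastin-10. No 2 of the 4 groups overlapped, with control siRNA and metastin-10 lowest and GPR54 siRNA and metastin-10 highest.

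SCGB1D2, lipophilin B, was at 7.24, 7.31 and 7.36 in control siRNA with control peptide and at 6.70, 6.61 and 6.86 with metastin-10. It was at 7.68, 7.32 and 7.46 with GPR54 siRNA and control peptide and at 7.78, 7.42 and 7.58 with GPR54 siRNA and metastin-10. Its 3 arrays of control siRNA with metastin-10 were again below all others, while the remaining groups lay close together and the 2 groups labelled GPR54 siRNA overlapped.

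**Figure D1:**
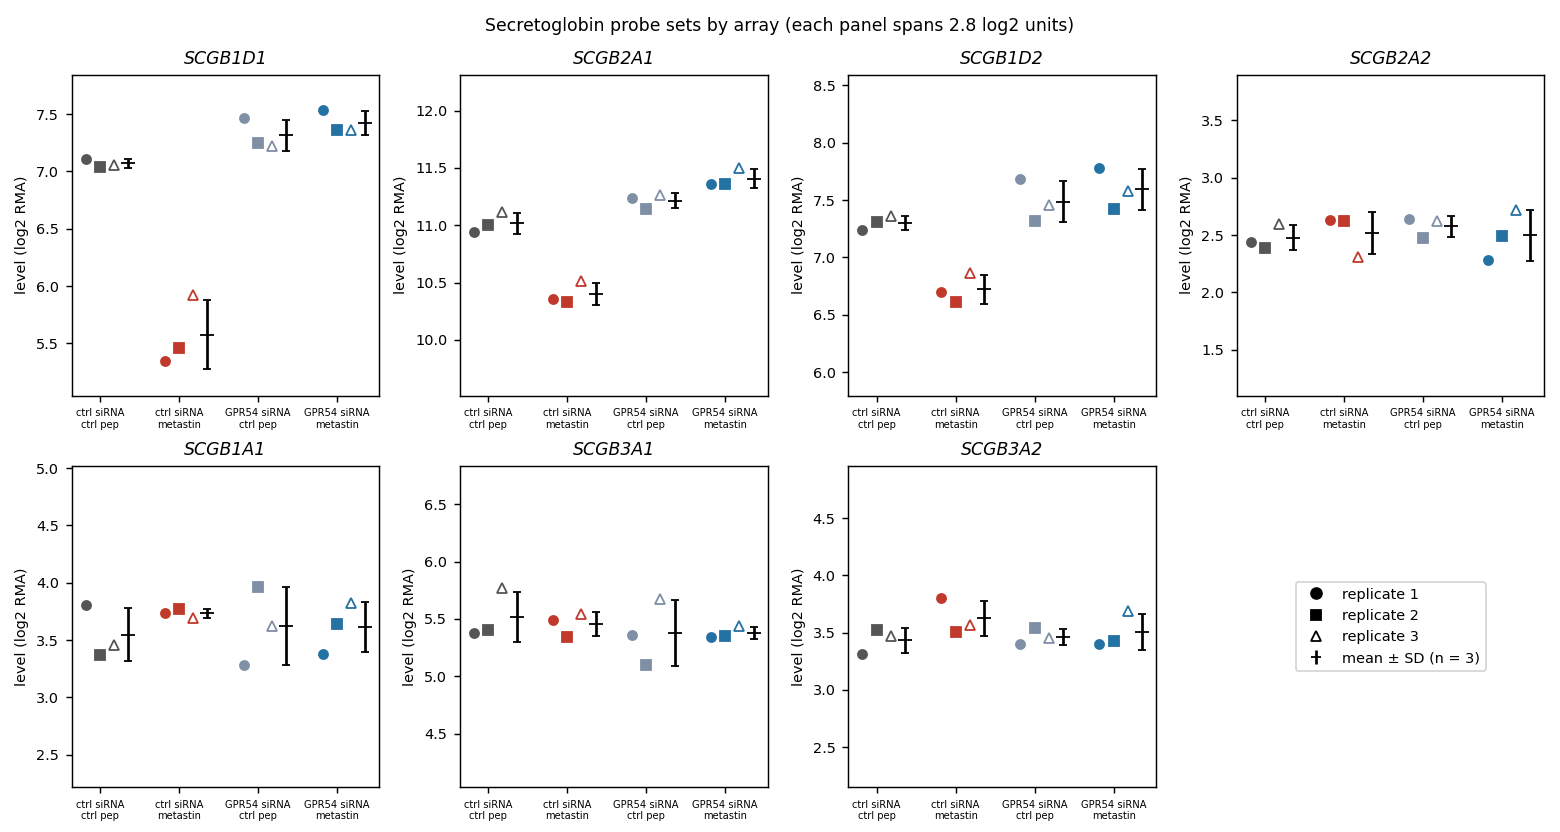
Level of each secretoglobin (log2 RMA, vertical axis, panels of equal span) in the 12 arrays by group, with replicates 1 to 3 as circles, squares and open triangles and the group mean ± SD in black. SCGB1D1, SCGB2A1 and SCGB1D2 are lowest in control siRNA with metastin-10 (means 5.58, 10.40 and 6.72), while the other 4 members show overlapping groups.

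The other 4 members stayed within a narrow band. SCGB2A2, which encodes mammaglobin A and follows SCGB1D2 on the chromosome, lay between 2.28 and 2.72 over the 12 arrays, with group means of 2.48 to 2.58. SCGB1A1, uteroglobin, lay between 3.28 and 3.96, and its group means of 3.55 to 3.74 differed by less than the SD of its GPR54 siRNA, control peptide group (0.34). SCGB3A1 lay between 5.10 and 5.77 with group means of 5.38 to 5.51. SCGB3A2 lay between 3.31 and 3.80 with group means of 3.43 to 3.63. For each of these 4 the groups overlapped in every comparison.

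Under control siRNA, metastin-10 went with lower levels of SCGB1D1, SCGB2A1 and SCGB1D2 and with no call for the other members. SCGB1D1 was 2.82-fold lower (log2 -1.50, SE 0.13, 95% interval -1.78 to -1.21), the second lowest of all tested probe sets, and it is this value that led to the choice of the family. In such cultures, fewer cells with a transcript and less of it per cell cannot be told apart. SCGB2A1 was 1.53-fold lower (-0.62, interval -0.80 to -0.43, limma adjusted p = 0.00726). SCGB1D2 was 1.50-fold lower (-0.58, interval -0.83 to -0.33) and missed the threshold of 0.05 (limma adjusted p = 0.0579), but passed it with the replicate number as a block (adjusted p = 0.0331). Of the 6 members with a test limma called 1, SCGB2A1, against 0.386% of all tested probe sets called lower. With the replicate block it called 2, against 0.683%. The groups of 2 of these 6 did not overlap, both lower, as held in that direction for 8.72% of all probe sets. With replicates 1 and 2 only, SCGB2A1 was at -0.62 (adjusted p = 0.0382) and SCGB1D2 at -0.62 (adjusted p = 0.108). The median over the 7 members was -0.056, against 0.012 for all tested probe sets.

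The size of the fall differed between the 3 genes from array to array. Between same-numbered arrays SCGB1D1 differed by -1.76, -1.58 and -1.15 on the log2 scale in replicates 1, 2 and 3. SCGB2A1 gave -0.57, -0.66 and -0.62, and SCGB1D2 gave -0.54, -0.70 and -0.50. SCGB1D1 therefore fell further than SCGB1D2 in each pair, by -1.22, -0.88 and -0.64, while SCGB1D2 and SCGB2A1 differed by no more than 0.11. Whether the probes of one lipophilin also read the mRNA of the other was not tested, and the gap between their changes shows only that the 2 probe sets did not read the same thing. The level of the 5 prime poly-A spike controls of the labelling reaction differed in the same pairs by -0.47, -0.26 and 0.12. It was lower with metastin-10 in replicates 1 and 2 and higher in replicate 3, and its part in the result was not tested. With replicate 3 as the sole array of the metastin-10 group, an alternative chosen after seeing the data, SCGB1D1 was at -1.16, SCGB2A1 at -0.51 (limma adjusted p = 0.433) and SCGB1D2 at -0.44 (adjusted p = 0.765). That fit takes the spread of the lone array from the other groups, and it called 0 of the 6 members and 1 of all 54613 probe sets lower (0.00183%).

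Where the label is GPR54 siRNA, metastin-10 went with no lower level of these genes. SCGB1D1 differed by 0.11 (95% interval -0.18 to 0.39), SCGB1D2 by 0.11 (-0.14 to 0.36) and SCGB2A1 by 0.19 (0.003 to 0.38). SCGB2A1 was higher in all 3 same-numbered pairs, by 0.12, 0.22 and 0.23, and its groups did not overlap, as was the case in the higher direction for 3.01% of all probe sets. The intervals leave out falls of the size seen under control siRNA. By limma 0 of the 6 members were called, as were 0.0% of all probe sets (1206 of which had an unadjusted p under 0.05), and 1 member, SCGB2A1, had an unadjusted p under 0.05 (0.0472). Without moderation the count was also 0.

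Between the siRNA labels, with control peptide, the members differed little, and the control arrays here are those of the first comparison. SCGB1D1 was 0.24 higher in the arrays labelled GPR54 siRNA (interval -0.04 to 0.53), SCGB2A1 0.20 higher (0.01 to 0.38) and SCGB1D2 0.18 higher (-0.07 to 0.44). In this comparison 1 of the 6 members with a test, SCGB2A1, had groups that did not overlap, in the higher direction, against 5.2% of all probe sets. By limma 0 of the 6 members were called, against 0.0531% of all probe sets. SCGB2A1 alone of the 6 had an unadjusted p under 0.05 (0.0419), as had 2321 of all 54613 probe sets. Without moderation the count was again 0.

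With metastin-10 present, SCGB1D1, SCGB2A1 and SCGB1D2 were higher under the GPR54 siRNA label than under control siRNA. The low arrays are those of the first comparison, which both comparisons share. SCGB1D1 was 3.59-fold higher (log2 1.85, interval 1.56 to 2.13), the highest of all tested probe sets. SCGB2A1 was 2.00-fold higher (log2 1.003, interval 0.82 to 1.19, limma adjusted p = 0.000166) and SCGB1D2 1.83-fold higher (0.88, interval 0.62 to 1.13, adjusted p = 0.00389). Called higher were 2 of the 6 members with a test, SCGB2A1 and SCGB1D2, against 0.527% of all probe sets. Their groups did not overlap, as held in the higher direction for 7.76% of all probe sets. The other members lay between -0.124 (SCGB1A1) and -0.021 (SCGB2A2). With replicate 3 as the sole array of control siRNA with metastin-10, SCGB1D1 was at 1.50, SCGB2A1 at 0.90 (adjusted p = 0.0559) and SCGB1D2 at 0.74 (adjusted p = 0.34). That fit called 0 of the 6 members and 12 of all probe sets higher (0.022%).

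**Figure D2:**
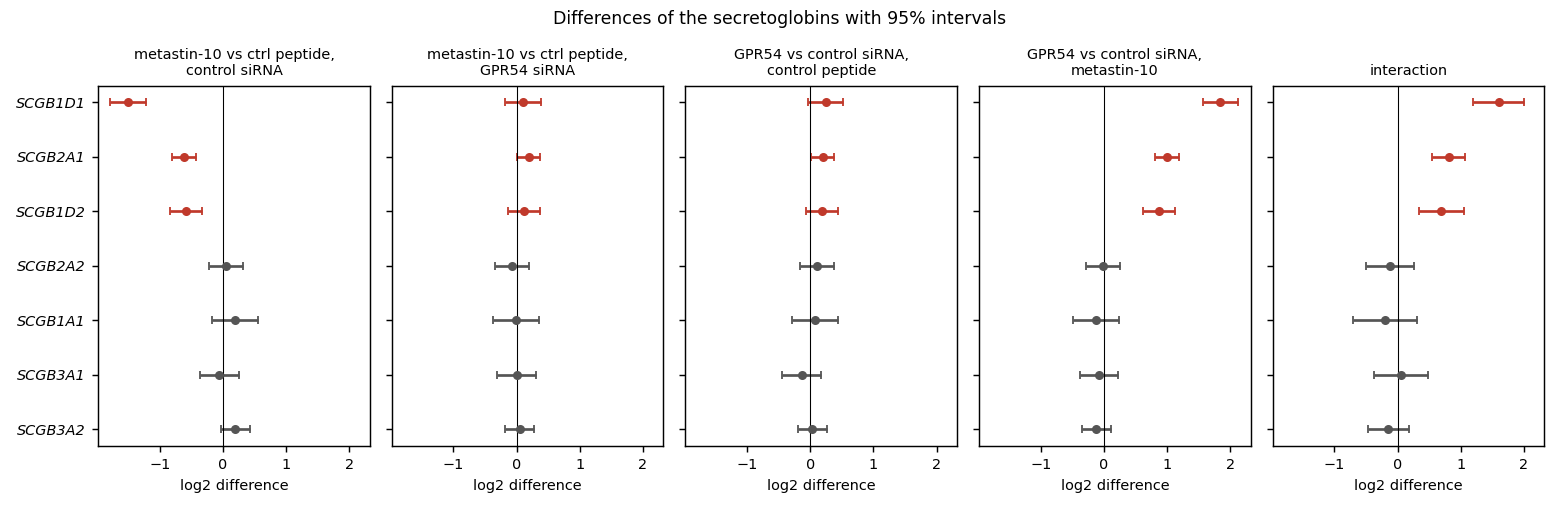
Log2 difference (horizontal axis) of the 7 secretoglobins with its 95% interval from the fit to all 12 arrays, in the 4 pairwise comparisons and the interaction. The 3 members in red, SCGB1D1, SCGB2A1 and SCGB1D2, lie at -1.50, -0.62 and -0.58 in the first panel and at 1.85, 1.003 and 0.88 in the fourth, and the 4 members in grey have intervals that include 0 in each panel.

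The interaction, obtained by subtracting the metastin-10 difference of control siRNA from that of GPR54 siRNA, asks whether the response depended on the siRNA label. It was 1.60 for SCGB1D1 (interval 1.20 to 2.00), 0.81 for SCGB2A1 (0.54 to 1.07, limma adjusted p = 0.043) and 0.69 for SCGB1D2 (0.34 to 1.05, adjusted p = 0.277). Called higher was 1 of the 6 members with a test, SCGB2A1, against 0.0458% of all probe sets. The SCGB2A1 call was lost in 11 of the 12 fits that left out 1 array, with adjusted p from 0.0469 to 0.174 over the 12. Its value there stayed between 0.75 and 0.86. It was also lost with replicates 1 and 2 only (adjusted p = 0.158).

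The measured genes on either side of the cluster gave no call. INCENP, a chromosomal passenger protein gene on one side of the cluster, was at -0.02 for metastin-10 under control siRNA (interval -0.35 to 0.31). ASRGL1, an asparaginase gene on the other side, was at -0.11 (-0.27 to 0.05), and AHNAK, which encodes a large scaffold protein, at -0.06 (-0.29 to 0.16). Of the 12 measured genes within 10 places of a member on chromosome 11, 0 were called by limma in this comparison or in that of the siRNA labels with metastin-10, and 1 had an unadjusted p under 0.05 in each. Over all 54613 probe sets, 5810 and 5512 had such a p. The median of the 12 genes was -0.073 in the first and 0.072 in the second, against 0.007 and 0.001 over 19775 genes. BEST1, a chloride channel gene, had the largest difference in the first (0.21, interval -0.05 to 0.48). B3GAT3, a proteoglycan linker enzyme gene, had the largest in the second (0.25, adjusted p = 0.334). B3GAT3 was the gene with the unadjusted p under 0.05 in both, at -0.19 in the first (interval -0.375 to -0.004). In both it lay on the side of SCGB1D1, SCGB2A1 and SCGB1D2. On chromosome 5, around SCGB3A1 and SCGB3A2, 0 of 15 measured neighbours were called in either comparison, with 1 and 0 at an unadjusted p under 0.05.

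**Figure D3:**
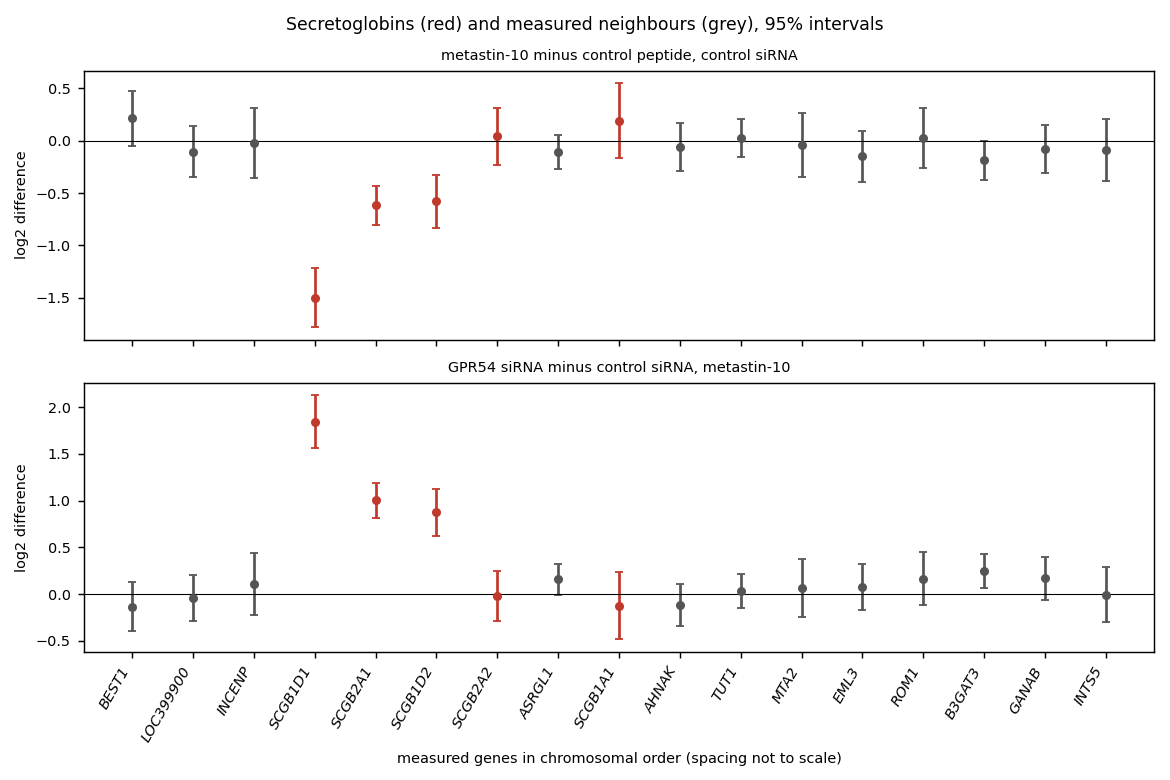
Log2 difference with 95% interval (vertical axis) of the measured genes around the chromosome 11 secretoglobins, in chromosome order and not to scale, for metastin-10 under control siRNA (top) and for the siRNA labels with metastin-10 (bottom). SCGB1D1, SCGB2A1 and SCGB1D2 (red) stand apart from SCGB2A2 and SCGB1A1 (red, near 0) and from the grey neighbours, which lie between -0.190 and 0.212 in the top panel.

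Genes known to act with secretoglobins were followed in lists. Among 16 genes for receptors, binding partners and enzymes bound by secretoglobins, 0 were called by limma for metastin-10 under control siRNA, 4 had an unadjusted p under 0.05, and the median was 0.045. The gene with the smallest p was MARCO, a scavenger receptor reported to bind SCGB3A2, at 0.42 (adjusted p = 0.0712), which passed with the replicate block (adjusted p = 0.0445). Its mean level of 4.60 lay within the range of the guide probe sets. The others with an unadjusted p under 0.05 were brighter and lower: LRP2 at -0.337, PLA2G4A at -0.275 and IL10RB at -0.258 (means 7.90, 8.07 and 7.69). Of 24 transcription factors of secretoglobin promoters, 0 were called and 2 had an unadjusted p under 0.05, with a median of -0.033. The epithelial factor ELF3 was at -0.24 (adjusted p = 0.292) and CEBPB, a factor of the airway uteroglobin promoter, at -0.26 (adjusted p = 0.436). The 5 measured steroid receptor genes all lay below 0, with a median of -0.129, 0 called and 0 at an unadjusted p under 0.05. The oestrogen receptor gene ESR1 was at -0.28 (adjusted p = 0.478) and ESR2, the other oestrogen receptor gene, at -0.14 (adjusted p = 0.718). In the comparison of the siRNA labels with metastin-10, 0 genes of these 3 lists were called, with 2, 2 and 0 at an unadjusted p under 0.05. Over all 54613 probe sets, 5810 had an unadjusted p under 0.05 for metastin-10 under control siRNA. Between the siRNA labels with metastin-10 it was 5512.

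Other products of secretory epithelium were mixed as a list, and the 8 above the guide lay mostly on the side of the 3 secretoglobins. Of 29 such genes, 1 was called lower and 0 higher for metastin-10 under control siRNA, against 0.386% of all tested probe sets called lower. Below 0 were 12 of 29, with a median of 0.029. The called gene was MUC20, a membrane mucin, at -0.47 (interval -0.66 to -0.28, limma adjusted p = 0.0372). With the replicate block 2 were called, MUC20 and the mucin gene MUC1 (-0.42, adjusted p = 0.0482), against 0.683% of all tested probe sets called lower. Between the siRNA labels with metastin-10, MUC20 (0.67, adjusted p = 0.0034) and MUC1 (0.57, adjusted p = 0.0307) were called higher and 0 lower. Of all tested probe sets 0.527% were called higher there, and the list median was -0.043. Of the 29 genes, 21 were not above the guide's highest level of 6.72. Of the 8 brighter ones 6 were below 0 for metastin-10 under control siRNA (median -0.207) and 6 above 0 between the siRNA labels with metastin-10 (median 0.346). Bright probe sets in general leaned these ways too, by less. With dim probe sets left out, 15902 of 27307 were below 0 in the first (median -0.027). In the second 11628 of 27307 were below 0 (median 0.025). The 8 genes included LCN2, a lipocalin, at -0.37 (adjusted p = 0.153) and 0.44 (adjusted p = 0.0633), and AGR2, a disulfide isomerase of mucus cells, at -0.23 (adjusted p = 0.339) and 0.33 (adjusted p = 0.132). SPP1, which encodes osteopontin, lay the other way, at 0.35 (adjusted p = 0.338) and -0.43 (adjusted p = 0.221). Of the epithelial markers, KRT19, a keratin, was lower with metastin-10 under control siRNA (-0.48, adjusted p = 0.009). The other 9 were not called, against 0.386% of all tested probe sets called lower. SCGB2B2, the further family gene that had a probe set of its own, was at 0.26 (adjusted p = 0.55). Markers of airway epithelium (7 genes) and breast luminal cells (6 genes), which make secretoglobins, had 0 calls in both comparisons. In the first 0 genes had an unadjusted p under 0.05, and in the second 1 had, the airway keratin KRT5 (-0.345, adjusted p = 0.236). The means over all arrays were 2.83 to 5.82 and 3.03 to 7.65.

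Markers of ciliated epithelium, a cell type of the endometrial lining, held genes that moved with the secretoglobins. The 8 genes had means of 2.51 to 7.45, and their average level was 5.48 under both controls, 5.31 with metastin-10 on control siRNA, and 5.60 and 5.59 under the GPR54 siRNA label. For metastin-10 under control siRNA, 1 was called lower and 0 higher, with a median of -0.207, against 0.386% of all tested probe sets called lower. The called gene was RSPH1, a radial spoke gene, at -0.68 (interval -0.89 to -0.47, limma adjusted p = 0.00772). With the replicate block 3 were called, against 0.683% of all tested probe sets called lower. The block added FOXJ1, the transcription factor of motile cilia (-0.44, adjusted p = 0.0442), and CIMAP3 (-0.40, adjusted p = 0.0363). Between the siRNA labels with metastin-10, CIMAP3 (0.71, adjusted p = 0.00517) and RSPH1 (0.69, adjusted p = 0.00558) were called higher. Of all tested probe sets 0.527% were called higher there, and the list median was 0.301. With replicate 3 as the sole array of control siRNA with metastin-10, none of the called list genes passed for metastin-10 under control siRNA: MUC20 was at -0.34 (adjusted p = 0.733), KRT19 at -0.49 (adjusted p = 0.315) and RSPH1 at -0.65 (adjusted p = 0.389). In the comparison of the siRNA labels the same holds for MUC20 (0.53, adjusted p = 0.311), MUC1 (0.56, adjusted p = 0.504), KRT19 (0.60, adjusted p = 0.131), RSPH1 (0.65, adjusted p = 0.33) and CIMAP3 (0.61, adjusted p = 0.268). With replicates 1 and 2 only, MUC20 (-0.50, adjusted p = 0.0738) and KRT19 (-0.47, adjusted p = 0.0706) missed for metastin-10, and MUC1 (0.64, adjusted p = 0.0502) missed between the labels. Whether the ciliated markers have a part in the secretoglobin differences was not tested.

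The genes whose pattern over the 12 arrays was most like that of SCGB1D1 were sought among 19774 others, at 1 probe set a gene. YPEL5 and DPYSL4 both had a Pearson r of 0.987 with SCGB1D1, KDM3A and STC1 0.985, TSC22D3 0.983 and FKBP1B 0.982. KDM3A encodes a histone demethylase, STC1 the secreted glycoprotein stanniocalcin, TSC22D3 a leucine zipper protein induced by glucocorticoids, DPYSL4 a member of the collapsin response mediator family and FKBP1B a calcium channel-binding protein. All points share the arrays and the low group of control siRNA with metastin-10, so the r of the deviations from the group means is given too. It was 0.881 for YPEL5, 0.713 for DPYSL4, 0.780 for KDM3A, 0.663 for STC1, 0.578 for TSC22D3 and 0.752 for FKBP1B. In control siRNA with metastin-10 SCGB1D1 had an SD of 0.30, against 0.04, 0.13 and 0.10 in the other groups. Its deviations therefore also rest largely on the arrays of that low group. SCGB2A1 (0.959) and SCGB1D2 (0.958) came 75th and 77th by Pearson r, with deviation r of 0.385 and 0.676. At the other end were ODC1 (-0.962), the first enzyme of polyamine synthesis, AMIGO2 (-0.945), an adhesion protein, and TNFRSF21 (-0.934), a death receptor, with deviation r of -0.195, -0.204 and 0.386, so that TNFRSF21 turned sign within groups. For SCGB2A1 the closest genes were ANKRD37 (0.987), FAM162A (0.985) and STC1 (0.983), with deviation r of 0.861, 0.656 and 0.657. For SCGB1D2 they were EPB41L4A-AS1 (0.986), DDIT3, a stress-induced transcription factor (0.984), and NFIL3, a basic leucine zipper repressor (0.984). Their deviation r with SCGB1D2 was 0.916, 0.928 and 0.885.

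**Figure D4:**
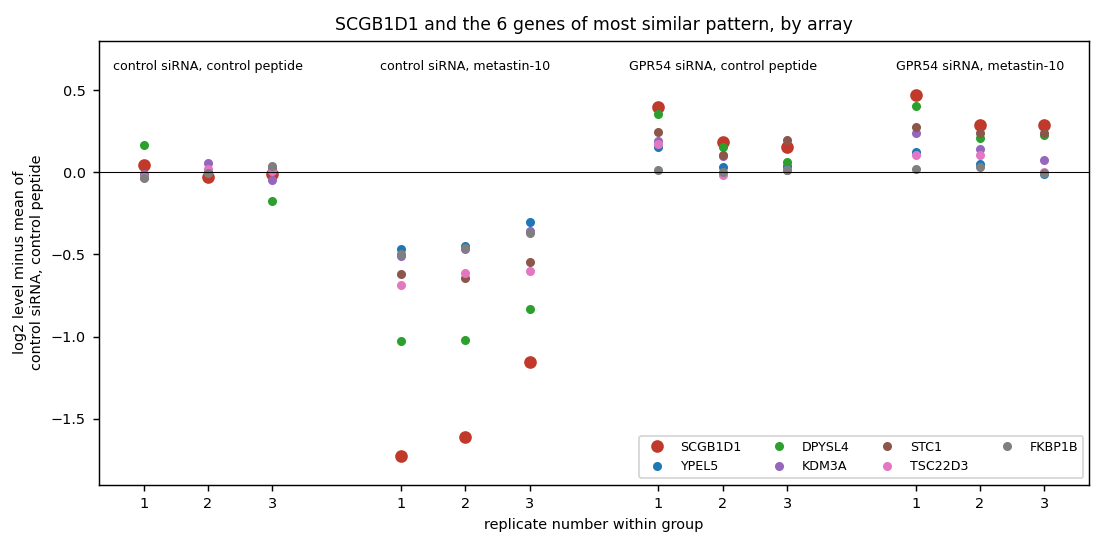
Log2 level of SCGB1D1 (large red points) and of the 6 genes of most similar pattern, each minus its mean in control siRNA with control peptide (vertical axis), for each replicate of the 4 groups. All 7 genes are low in the 3 arrays of control siRNA with metastin-10, where SCGB1D1 lies furthest below 0.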

How the data were processed

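RNA of each sample was read on 1 Affymetrix U133 Plus 2.0 array. The authors deposited a single table on the log2 scale, summarised by RMA according to the labels and per the submitters' processing notes, with its version not given in the sources used here. RMA subtracts background, equalises the distributions of the arrays and compresses differences of dim probe sets. Without the 62 controls, 54613 probe sets were tested with no filter. Symbols came from the platform annotation, checked by Entrez identifier against RefSeq (GRCh38.p14), and the brightest probe set stood for a gene. Limma 3.58.1 in R 4.3.3 fitted 4 group means over 12 arrays (8 residual degrees of freedom), two-sided, with Benjamini-Hochberg adjustment over all tested probe sets and a threshold of 0.05. The script was tested on simulated data. The labels call the replicates biological without naming their cultures, and p measures the spread between these arrays. Same-numbered arrays deviated together in every pair of the first 3 comparisons (r from 0.11 to 0.54). An offset shared by the arrays of replicate 3 would also give such r for replicates 1 and 2. The r therefore cannot show that same-numbered cultures were paired. The main fit had no block, and the replicate number was a block only in an alternative. Alternatives were the replicate block, replicate 3 as a batch, the groups of a contrast alone, array weights, an intensity trend, no moderation, other scalings, a filter on dim probe sets, the mean of a gene's probe sets, and leaving out arrays. Promoter windows were aligned with Biopython 1.88. Named genes are all members, list genes past the threshold (up to 4) or else the 1 or 2 with the smallest p, and the genes of highest and lowest r. INCENP, ASRGL1, AHNAK, BEST1, B3GAT3, COL1A1, LCN2, AGR2, SPP1, LRP2, PLA2G4A, IL10RB, KRT5 and TNNI3 were named after their values were seen. The secretory genes above the guide were also set apart after their values were seen. The members and lists were chosen with earlier results of these data known.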

Additional observations from a re-analysis of the deposited data

Results flagged for a closer look

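The metastin-10 response of SCGB2A1 differed between the siRNA labels by the interaction term of the fit, 0.81 on the log2 scale (limma adjusted p = 0.043), and 11 of the 12 fits that left out an array did not keep that call. SCGB1D1 had an interaction of 1.60. Its same-numbered pairs were all lower with metastin-10 under control siRNA and all higher under the GPR54 siRNA label. That difference was not tested, because the gene was chosen on values from these arrays.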

How the results depend on the processing

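Of the 6 secretoglobins with a test, 1 was called for metastin-10 under control siRNA. The count became 2 with array weights, an intensity trend, dim probe sets left out, the replicate block, or a batch term for replicate 3, and 0 with only the groups of the contrast and with only replicate 3 of control siRNA with metastin-10. It was 1 to 2 when each array was left out in turn, with 2 reached without replicate 1 of either group labelled GPR54 siRNA. Between the siRNA labels with metastin-10 the count was 2 and became 1 with only the groups of the contrast and 0 with only that replicate 3. For the interaction it was 1, with 0 in replicates 1 and 2 only, without moderation and with only that replicate 3, and 0 to 1 when each array was left out. SCGB1D1 moved by more than 1 SD between replicates (pooled over the groups compared) only with that single replicate 3, to -1.16, 1.50 and 1.26 in these 3 comparisons. With each array left out it ranged from -1.67 to -1.38, 1.73 to 2.02 and 1.49 to 1.77. In the other 4 comparisons the replicate block changed no count of members. Between the siRNA labels with metastin-10 the same-numbered deviations had r of -0.15, 0.26 and 0.07, so the arrays share only a number there, and the block gave 4 in place of 2 calls among secretory products (adding LCN2 at adjusted p = 0.0224 and AGR2 at 0.0487) and 3 in place of 2 among ciliated markers. Over all 54613 probe sets the block called 447 higher in that comparison, where the main fit called 288. SCGB1D2 under control siRNA passed in 7 of 23 alternatives (adjusted p from 0.0313 to 0.765), and SCGB2A1 in 21 of 23 (0.000271 to 0.433). The siRNA comparison with metastin-10 kept SCGB2A1 in 22 of 23 (1.22e-06 to 0.0559) and SCGB1D2 in 21 of 23 (0.00115 to 0.34), SCGB1D2 also missing with only the 2 groups (0.0541). SCGB2A1 passed for the interaction in 8 of 22 (0.00149 to 0.61) and SCGB1D2 in 0 of 22 (0.0816 to 0.97). No called value reversed. Of 1780 list counts under alternatives 68 moved by over 1.5 times, lying between 0 and 6. The interaction needs all 4 groups, so it has no fit on the groups of a contrast alone. The cause of these moves was not tested. Levels within or below the range of the guide probe sets limit what can be said of SCGB2A2, SCGB1A1, SCGB3A2 and SCGB3A1.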

Other observations

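Most probe sets of distant-tissue genes lay slightly on the other side of 0, as did most dim probe sets. For metastin-10 under control siRNA 25573 of all 54613 probe sets were below 0. With dim probe sets left out it was 15902 of 27307, so most of those left out were above 0. Of 17 such genes 3 were below 0 for metastin-10 under control siRNA, with a median of 0.127, 0 called by limma and 2 at an unadjusted p under 0.05. TNNI3, the brightest of them at 6.72, was on the side of the secretoglobins, at -0.215. Between the siRNA labels with metastin-10 it was at 0.342 (limma adjusted p = 0.0795). Under control siRNA the average level of the 17 genes was 4.33 with control peptide and 4.45 once metastin-10 was added. The 6 leukocyte markers (median 0.153) and the 7 airway markers (0.176) were also all above 0 there, with 0 called and 0 at an unadjusted p under 0.05. The leukocyte and distant-tissue lists share a gene, so they are not separate observations.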
